A study of Mus musculus with 8 samples.

Results

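Polycomb complex subunits, the proteins of 2 families of histone-modifying complexes, were followed at the mRNA level in mouse embryonic stem cells (ESCs) with and without Dax1. The subunits described were Suz12, Eed, Ezh2, Ezh1, Jarid2 and Mtf2 of Polycomb repressive complex 2 (PRC2), and Cbx7, Cbx2, Cbx6 and Ring1 of Polycomb repressive complex 1 (PRC1). They were taken by symbol and are 10 of the 52550 genes counted. All 10 passed the filter on low counts, which left 20749 genes for testing.

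Control ESCs and Dax1KO ESCs were each grown on gelatin in 2i/LIF or LIF/serum and sequenced at passage 3, with 2 libraries in each of the 4 groups. Dax1, also named Nr0b1, encodes an orphan nuclear receptor of the ESC transcription factor network. 2i/LIF was N2B27 medium with the MEK inhibitor PD0325901 at 1 µM, the GSK3 inhibitor CHIR99021 at 3 µM and the cytokine LIF at 10 ng/ml, and LIF/serum was DMEM with 15% fetal bovine serum and LIF at the same concentration. The Dax1KO line was made in 2i/LIF with a lentivirus that carried Cas9, a guide RNA at the Dax1 start codon and zeocin resistance, and the study's functional experiments used a single colony of it. A difference between Dax1KO and control cells is therefore a difference between that clone and its control, and the effect of the deletion cannot be told apart from other properties of the clone. The comparisons asked how the subunits differed between the 2 media and after loss of Dax1 in each medium.

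Total counts lay between 35911384 and 37286251 per library, so the groups had similar depth. Normalized counts of Nr0b1 were 457 and 300.1 in 2i/LIF control cells and 0 in both 2i/LIF Dax1KO libraries, and 5402 and 5001 in LIF/serum control cells against 13.4 and 5.85 in Dax1KO cells, as the labels state. The summed level of 10 ESC markers lay between 221868 and 275151 normalized counts in all libraries, though single markers moved in both directions. Of the 10, 1 rose after loss of Dax1 in LIF/serum, Klf4, and none was called in 2i/LIF. Between media 3 were higher and 2 lower in 2i/LIF in control cells, and 2 higher and 4 lower in Dax1KO cells. After loss of Dax1, 1.51% of all genes tested rose and 1.65% fell in 2i/LIF, and 8.87% rose and 5.78% fell in LIF/serum. Of all genes, 20.3% were higher and 16.5% lower in 2i/LIF in control cells, and 15.2% and 13.7% in Dax1KO cells. The summed level of 6 primitive endoderm markers was 5488 and 3916 in LIF/serum control cells and 14567 and 12283 in LIF/serum Dax1KO cells, and 5 of these 6 markers rose there. None of the 6 was at 0 in any group. In 2i/LIF the same sum lay between 1057 and 1393 in all 4 libraries, though 1 of the 6, Dab2, rose in Dax1KO cells. There 3 of the 6 had log2 fold changes above 0. Gata6 (log2 -1.13), Pdgfra (log2 -0.29) and Gata4 (log2 -0.16) had lower values and were not called. The summed level of 6 trophectoderm markers was 1078 and 1486 in 2i/LIF control cells against 2690 and 2944 in Dax1KO cells, and 2380 and 2327 in LIF/serum control cells against 4229 and 3505, with 2 of the 6 called higher in each medium, Krt8 and Krt18 in 2i/LIF and Hand1 and Krt18 in LIF/serum. Krt8 and Krt18 made up most of each sum. In 2i/LIF, Gata3 (log2 -1.44) and Hand1 (log2 -0.69) had lower values in Dax1KO cells and were not called. Cdx2 was at 0 in all 4 libraries of 2i/LIF. In LIF/serum, 4 of the 6 had log2 fold changes above 0. Cdx2 (log2 -0.85, mean of 11.15 normalized counts in Dax1KO cells) and Gata3 (log2 -0.03) were below 0 there and not called. The sum of 4 fibroblast markers (3 tested) was 1847 and 2327 in 2i/LIF control cells against 1242 and 1208 in Dax1KO cells. Most of it was Thy1, the 1 marker called lower, at 1726 and 2189 against 1091 and 1086. Col1a1 (log2 0.05) and Col1a2 (log2 1.60, mean of 6.34 normalized counts in Dax1KO cells) were not lower there. In LIF/serum the sum was 458 and 483 in control cells against 1498 and 1434 in Dax1KO cells. There 2 were called higher, Col1a1 and Thy1, and Col3a1 was at 0 in all 4 libraries. Of 4 neural markers, 1 fell in LIF/serum and none was called in 2i/LIF. The part of these markers in the results was not tested. In such bulk samples, fewer cells of a type and less RNA per cell cannot be told apart.

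Polycomb complexes keep developmental genes silent in ESCs. PRC2 methylates a lysine of histone H3 through its catalytic subunit, Ezh2 or Ezh1, which is active only together with Eed and Suz12. Eed binds the methylated histone tail and stimulates the enzyme, Suz12 is the scaffold of the core, and Jarid2 and Mtf2 are accessory subunits that help to bring the complex to its targets, many of which are CpG islands. PRC1 ubiquitinates another core histone through Ring1 or Rnf2. In its canonical form a CBX protein, among them Cbx7, Cbx2 and Cbx6, reads the mark that PRC2 leaves.

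The promoters of Suz12, Eed and Ezh2 are shown because in control cells Suz12 and Eed had the largest differences between media among the called PRC2 members, in opposite directions, and because Ezh2 passed the test after loss of Dax1 in both media. Each run is the RefSeq window on GRCm38.p6 from 250 bases before to 50 bases after the start site, written 5′ to 3′ on the gene's strand. Suz12 lies at chr11:79992856-79993155 on the + strand, Eed at chr7:89980927-89981226 on the - strand and Ezh2 at chr6:47594981-47595280 on the - strand. Capitals mark the letters of 5 motifs searched on both strands: the CCAAT box CCAAT, the GC box GGGCGG, the E-box CACGTG, the E2F site TTTGGCGC and the estrogen-related receptor site TCAAGGTCA.
Suz12: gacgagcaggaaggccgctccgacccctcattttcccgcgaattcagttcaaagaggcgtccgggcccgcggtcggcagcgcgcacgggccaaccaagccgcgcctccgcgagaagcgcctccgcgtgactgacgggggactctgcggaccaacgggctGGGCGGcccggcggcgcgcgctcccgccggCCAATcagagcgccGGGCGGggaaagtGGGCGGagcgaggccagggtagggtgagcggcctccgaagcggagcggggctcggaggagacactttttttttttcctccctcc
Eed: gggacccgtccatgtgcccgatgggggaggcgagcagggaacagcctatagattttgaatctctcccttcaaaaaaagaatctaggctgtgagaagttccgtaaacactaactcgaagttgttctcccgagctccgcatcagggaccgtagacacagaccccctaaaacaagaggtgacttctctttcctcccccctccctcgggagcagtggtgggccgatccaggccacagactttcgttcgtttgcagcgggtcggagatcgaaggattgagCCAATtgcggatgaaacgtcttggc
Ezh2: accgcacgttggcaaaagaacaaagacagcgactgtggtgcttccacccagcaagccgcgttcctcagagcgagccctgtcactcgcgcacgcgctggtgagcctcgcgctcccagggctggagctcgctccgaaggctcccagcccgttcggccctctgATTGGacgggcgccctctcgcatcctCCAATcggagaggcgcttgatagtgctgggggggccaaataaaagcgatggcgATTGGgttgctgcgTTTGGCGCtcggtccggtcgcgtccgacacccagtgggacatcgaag

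The Suz12 window held 41 CpG dinucleotides, the Ezh2 window 31 and the Eed window 17, against a median of 7 over the 32851 windows of the RefSeq table. The Suz12 window had more CpG than 96.5% of all windows. It matched the GC box at 3 places and the CCAAT box at 1. The Ezh2 window matched the CCAAT box at 3 places and the E2F site at 1, and the Eed window matched the CCAAT box at 1. The CCAAT box was found in 37.4% of all windows, the GC box in 35.7%, the E-box in 7.15%, the E2F site in 0.514% and the estrogen-related receptor site in 0.423%. The last 2 motifs thus are rare, and the Ezh2 window held 1 of them while no member's window held the estrogen-related receptor site. No peak or methylation was measured here, so these matches only describe the letters. Windows were listed for 9 of the 10 members, all but Cbx2, with 11 windows in all, and the highest CpG count among them was that of Suz12.

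Levels are compared between genes as CPM per kb, that is, counts scaled to a fixed library total and divided by the length of the gene's exons. In 2i/LIF the scaffold subunit Suz12 had the highest level of the 10, at 94.3 and 77.7 CPM per kb in control cells and 87.3 and 85.1 in Dax1KO cells. Mtf2 came next at 70.5 and 45.5 in 2i/LIF control cells, and below it Eed, Jarid2 and Ezh2 lay close together with means of 34.9, 33.8 and 32.9 CPM per kb. The ranges of Eed and Jarid2 overlapped, as did those of Jarid2 and Ezh2. In LIF/serum control cells the order was different. Eed and Mtf2 led with means of 71.9 and 71.4 CPM per kb and overlapping ranges, Jarid2 followed at 56.0, and Suz12 held rank 6 at 21.4 ± 4.42 (SD, n = 2), where it did not separate from Cbx7 at 24.9 ± 2.63 (SD, n = 2). Ring1 was the lowest of the 10 in every group, with means between 1.93 and 2.95 CPM per kb.

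**Figure D1:**
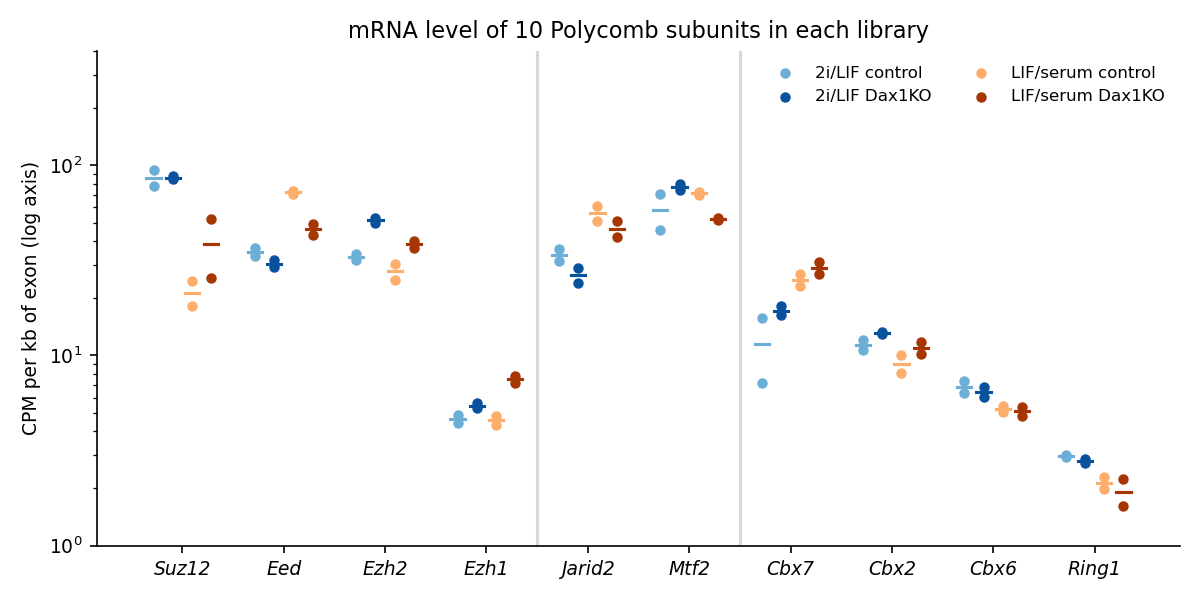
Level of each Polycomb subunit in each library, in CPM per kb of exon on a log axis, with PRC2 core subunits at left, PRC2 accessory subunits in the middle and PRC1 subunits at right. Points are single libraries and bars are group means of 2 libraries. Suz12 lies at 77.7 to 94.3 in the 4 libraries grown in 2i/LIF and at 18.3 to 51.9 in the 4 grown in LIF/serum.

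A gene was called changed when edgeR's quasi-likelihood test gave a P of at most 0.05 after Benjamini-Hochberg adjustment over all 20749 genes and the fold change was at least 1.2. Between media, 5 of the 10 subunits were called in control ESCs, with Suz12 and Cbx6 higher in 2i/LIF and Eed, Jarid2 and Cbx7 lower. Of all genes tested, 36.8% were called in that comparison. In Dax1KO ESCs, 5 of 10 were called between media, with Suz12 and Ezh2 higher in 2i/LIF and Eed, Jarid2 and Ezh1 lower, where 28.9% of all genes were called. The median log2 fold change of the 10 subunits between media was 0.14 in control cells and 0.30 in Dax1KO cells, against 0.01 for all genes in both. After loss of Dax1, 1 of 10 subunits was called in 2i/LIF, Ezh2, where 3.16% of all genes were called. In LIF/serum 3 of 10 were called, with Ezh1 and Ezh2 higher in Dax1KO cells and Eed lower, where 14.7% of all genes were called. Median log2 fold changes of the 10 after loss of Dax1 were 0.11 in 2i/LIF and 0.09 in LIF/serum, against -0.01 and 0.01 for all genes. The libraries of the 2 groups did not overlap for 8 of 10 subunits in each Dax1 comparison and in the media comparison of control cells, and for all 10 in the media comparison of Dax1KO cells. The same was true of 51.8% of all genes in 2i/LIF and 57.5% in LIF/serum after loss of Dax1, and of 68.6% in control and 68.9% in Dax1KO cells between media.

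**Figure D2:**
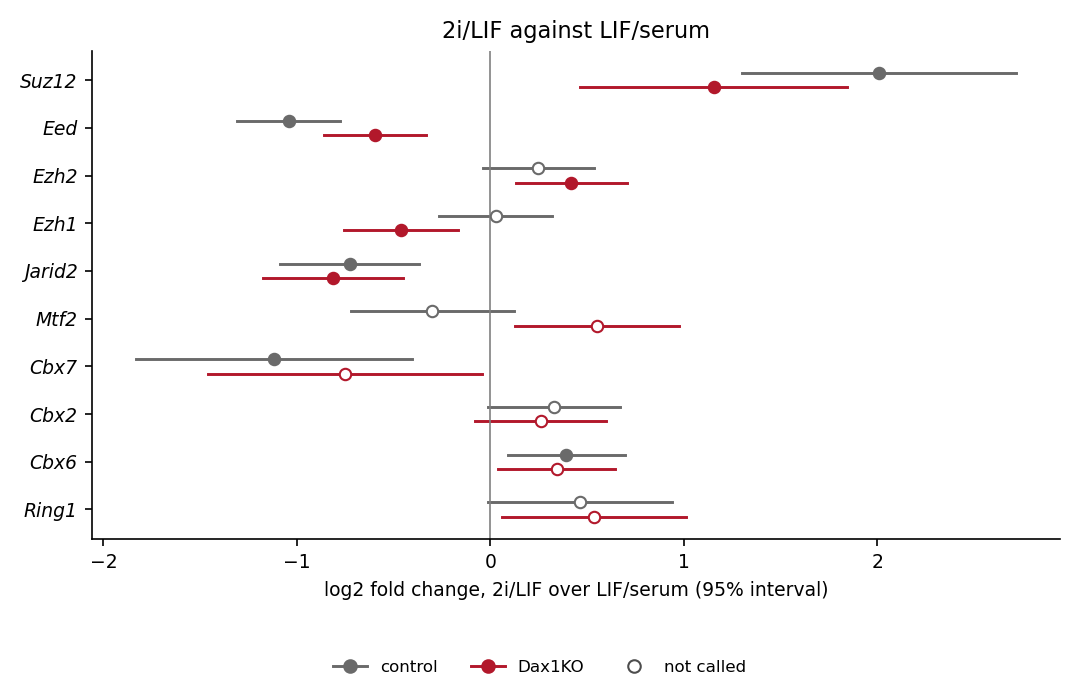
Log2 fold change of each subunit between 2i/LIF and LIF/serum, in control and in Dax1KO ESCs. Points are estimates from edgeR, bars are 95% intervals and filled points passed the test. Suz12 is farthest to the right, at 2.01 in control cells, and Cbx7 and Eed are farthest to the left in control cells, at -1.12 and -1.04.

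Suz12 differed most between media. The gene lies on chromosome 11 (chr11:79993106-80034123, GRCm38). Its normalized counts were 17132 and 14116 in 2i/LIF control cells and 4456 and 3319 in LIF/serum control cells. Each 2i/LIF library was above each LIF/serum library. Suz12 was thus 4.02-fold higher in 2i/LIF in control cells (log2 2.01, SE 0.31, 95% interval 1.30 to 2.71, adjusted P = 0.00175). In Dax1KO cells its normalized counts were 15864 and 15462 in 2i/LIF and 4651 and 9430 in LIF/serum, and it was again higher in 2i/LIF (log2 1.15, SE 0.30, adjusted P = 0.0229). The 2 LIF/serum Dax1KO libraries were far apart, replicate 2 alone lying well above both control libraries.

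The difference of Suz12 between Dax1KO and control cells in LIF/serum did not pass the test (log2 0.86, SE 0.30, 95% interval 0.17 to 1.55, adjusted P = 0.0944). It passed with DESeq2 (log2 0.85, adjusted P = 0.017). With 1 library left out its log2 ranged from 0.26 to 1.28, the highest without LIF/serum Dax1KO replicate 1. The difference between media in Dax1KO cells fell to a log2 of 0.73 and did not pass the test without that library (adjusted P = 0.0572), nor without either 2i/LIF Dax1KO library. In 2i/LIF the log2 fold change of Suz12 after loss of Dax1 was 0.00 (95% interval -0.68 to 0.68). Of the exon bases of Suz12, 3.6% are shared with the antisense gene Gm26563, which had 38.1 and 444 normalized counts in 2i/LIF control cells, 532 and 500.4 in 2i/LIF Dax1KO cells, 331 and 241 in LIF/serum control cells and 9.57 and 271 in LIF/serum Dax1KO cells. Within LIF/serum Dax1KO cells the library with more Suz12 had more of this gene, and within 2i/LIF control cells the one with less Suz12 did. No strand setting is given for the counts, so reads over the shared bases cannot be assigned to either gene.

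Eed, the subunit that reads the methyl mark, went the other way. It lies on chromosome 7 (chr7:89954654-89980983). It had 5144 and 4676 normalized counts in 2i/LIF control cells and 9933 and 10301 in LIF/serum control cells. The 2 media did not overlap, and Eed was 2.06-fold lower in 2i/LIF (log2 -1.04, SE 0.12, adjusted P = 0.000384), a call kept with each library left out in turn. In Dax1KO cells its normalized counts were 4466 and 4087 in 2i/LIF and 6897 and 6036 in LIF/serum, so the difference between media was smaller in size (log2 -0.60, SE 0.12, adjusted P = 0.00673). Without 2i/LIF Dax1KO replicate 2 the latter had an adjusted P of 0.0705. Whether the difference between media itself changed with Dax1 was tested as an interaction, which Eed did not pass (log2 -0.45, 95% interval -0.82 to -0.07, adjusted P = 0.189).

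Both LIF/serum Dax1KO libraries were below both LIF/serum control libraries for Eed, which fell by 0.65 on the log2 scale after loss of Dax1 in that medium (SE 0.12, adjusted P = 0.0116). In 2i/LIF the log2 fold change was -0.20 (95% interval -0.46 to 0.07, adjusted P = 0.43). Without LIF/serum Dax1KO replicate 2 the call in LIF/serum was lost for all 3 subunits that had it, with adjusted P values of 0.0859 for Eed, 0.0783 for Ezh1 and 0.187 for Ezh2. The log2 fold changes without that library were -0.55 for Eed, 0.66 for Ezh1 and 0.42 for Ezh2.

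The catalytic subunits Ezh2 and Ezh1 were both higher in LIF/serum Dax1KO cells. Ezh2, the methyltransferase subunit that predominates in ESCs, had 7789 and 8364 normalized counts in 2i/LIF control cells and 12219 and 13004 in 2i/LIF Dax1KO cells. In LIF/serum it had 6132 and 7468 in control cells and 9064 and 9807 in Dax1KO cells. In both media each Dax1KO library was above each control library. Ezh2 rose by a log2 of 0.64 in 2i/LIF (SE 0.12, adjusted P = 0.038) and of 0.47 in LIF/serum (SE 0.12, adjusted P = 0.0405). The calls were near the threshold. That in 2i/LIF was lost when any of 6 of the 8 libraries was left out, with adjusted P values up to 0.22, and that in LIF/serum when any of 7 was, up to 0.187.

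Ezh2 lies on chromosome 6 (chr6:47530139-47595341), and genes of this chromosome as a whole were higher in Dax1KO cells. The median log2 fold change of its 1054 tested genes was 0.44 in 2i/LIF and 0.52 in LIF/serum, against -0.03 and -0.00 for the 19695 genes of the other chromosomes. Of the chromosome 6 genes 9.87% rose in 2i/LIF and 28.3% in LIF/serum, against 1.07% and 7.83% of the others. Relative to the median of its chromosome, the log2 fold change of Ezh2 was 0.20 in 2i/LIF and -0.04 in LIF/serum. Its fold change was above that of 68.6% of chromosome 6 genes in 2i/LIF and of 47.1% in LIF/serum. The difference of Ezh2 and that of its chromosome cannot be told apart in this clone.

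Ezh1, the less active paralog, lies on chromosome 11 (chr11:101191115-101226463). Its normalized counts were 1320 and 1174 in LIF/serum control cells and 1966 and 2138 in LIF/serum Dax1KO cells. The 2 groups did not overlap, and Ezh1 rose by a log2 of 0.72 (SE 0.13, 95% interval 0.42 to 1.01, adjusted P = 0.0114). Without LIF/serum control replicate 2 the adjusted P was 0.0528. In 2i/LIF it had 1213 and 1327 in control and 1447 and 1532 in Dax1KO cells (log2 0.23, adjusted P = 0.409). The difference of 0.49 between the log2 fold changes in the 2 media did not pass the interaction test (95% interval 0.07 to 0.90, adjusted P = 0.192).

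Between media, neither catalytic subunit passed the test in control cells (Ezh2 log2 0.25, adjusted P = 0.153, Ezh1 log2 0.03, adjusted P = 0.892). In Dax1KO cells Ezh2 was higher in 2i/LIF (log2 0.42, adjusted P = 0.0371) and Ezh1 lower (log2 -0.46, adjusted P = 0.0284). Both calls were lost when any of the 4 Dax1KO libraries was left out, with adjusted P values up to 0.19 and 0.157, and that of Ezh2 also without either 2i/LIF control library. As a share of the summed CPM per kb of Ezh1 and Ezh2, Ezh2 made up 87.7% and 87.5% in 2i/LIF control cells and 90.4% in both 2i/LIF Dax1KO libraries. In LIF/serum it made up 83.8% and 87.6% in control cells and 83.7% and 83.6% in Dax1KO cells. Ezh2 was thus the major catalytic transcript in all 8 libraries. These shares depend on the gene length used, and by the longest transcript their means were higher, between 87.4% and 92.7%.

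**Figure D3:**
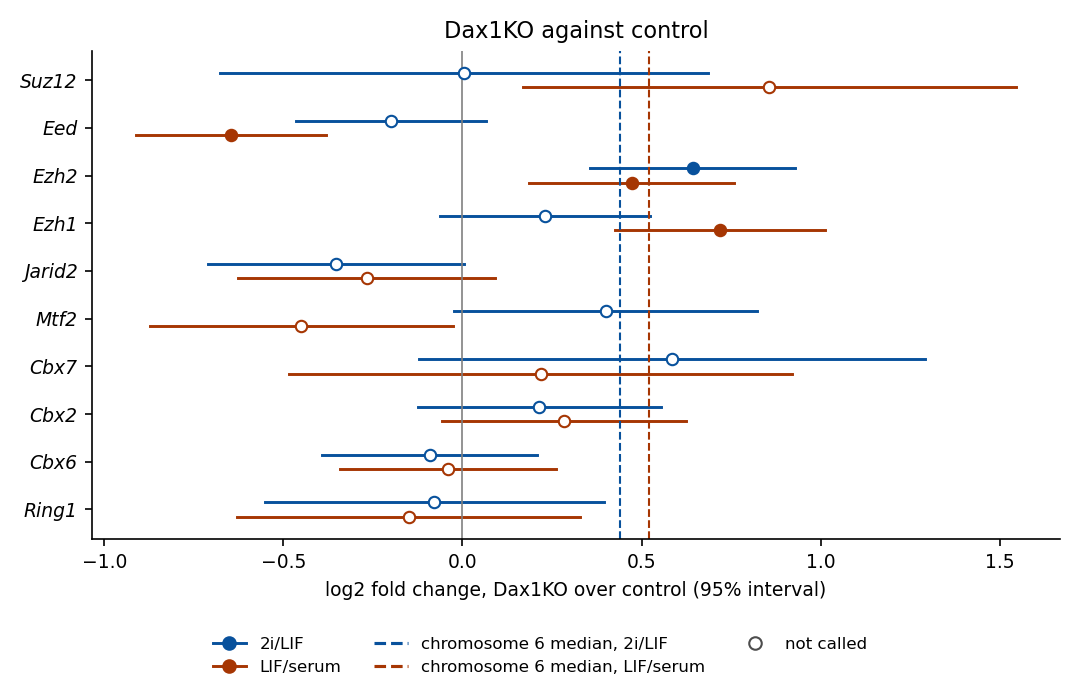
Log2 fold change of each subunit between Dax1KO and control ESCs for each medium, with 95% intervals from edgeR and filled points for calls. Dashed lines give the median of the 1054 chromosome 6 genes tested, 0.44 in 2i/LIF and 0.52 in LIF/serum. Ezh2, the only member on chromosome 6, lies near these lines, and Eed in LIF/serum is the only filled point below 0.

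Of the accessory subunits, Jarid2, a catalytically inactive member of the Jumonji family, was lower in 2i/LIF. It lies on chromosome 13 (chr13:44729474-44921643). Jarid2 had normalized counts of 11178 and 12961 in 2i/LIF control cells and 21694 and 18258 in LIF/serum control cells. The media did not overlap, and Jarid2 was 1.66-fold lower in 2i/LIF (log2 -0.73, SE 0.16, adjusted P = 0.0082). In Dax1KO cells its normalized counts were 8549 and 10350 in 2i/LIF and 18157 and 15037 in LIF/serum, with a log2 fold change of -0.81 (SE 0.16, adjusted P = 0.00661). The first call was lost without 2i/LIF control replicate 1 (adjusted P = 0.0597) and the second without 2i/LIF Dax1KO replicate 1 (adjusted P = 0.0605). Jarid2 did not pass the test after loss of Dax1 in either medium, with log2 fold changes of -0.35 in 2i/LIF (95% interval -0.71 to 0.01) and -0.27 in LIF/serum (95% interval -0.63 to 0.09).

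Mtf2, a Polycomb-like subunit that binds CpG-rich DNA, did not pass the test in any of the 5 comparisons as fitted here, and did so under some alternatives. It lies on chromosome 5 (chr5:108065674-108109004). Its normalized counts were 14752 and 9527 in 2i/LIF control cells and 16590 and 15449 in 2i/LIF Dax1KO cells. In LIF/serum they were 14690 and 15184 in control cells and 10771 and 11089 in Dax1KO cells. Dax1KO libraries were thus above the controls in 2i/LIF (log2 0.40, adjusted P = 0.307) and below them in LIF/serum (log2 -0.45, adjusted P = 0.141), with no overlap in either medium. The difference between the 2 media had a log2 of -0.85 (SE 0.26, 95% interval -1.45 to -0.25) and an adjusted P of 0.131. It passed with DESeq2 (log2 -0.87, adjusted P = 0.023). With 1 library left out it ranged from -1.2 to -0.6. The value of -1.2 came without 2i/LIF control replicate 1, the higher of the 2 control libraries. The log2 fold change in 2i/LIF after loss of Dax1 then ranged from 0.13 to 0.75. Between media the Dax1KO libraries did not overlap, with Mtf2 higher in 2i/LIF by a log2 of 0.55 at an adjusted P of 0.0564. That difference passed with DESeq2 (adjusted P = 0.0201), with a minimum of 10 counts in every library (adjusted P = 0.0485), with a separate fit (adjusted P = 0.00955) and without either 2i/LIF control library (adjusted P = 0.00957 and 0.011). With 1 library left out, the log2 fold change in LIF/serum after loss of Dax1 ranged from -0.47 to -0.43. That between media in control cells ranged from -0.64 to -0.06, with -0.64 without 2i/LIF control replicate 1. Mtf2 shares 6.93% of its exon bases with Tmed5 on the other strand. Tmed5 had 3593 and 2467 normalized counts in 2i/LIF control cells, 3225 and 3039.7 in 2i/LIF Dax1KO cells, 3782 and 3453 in LIF/serum control cells and 2649.9 and 2629 in LIF/serum Dax1KO cells. It was thus lower in the same LIF/serum Dax1KO libraries and in the same 2i/LIF control library as Mtf2, and its part in the values of Mtf2 was not tested.

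No member passed the interaction test in edgeR, in which 2.87% of all genes passed, 2.05% with a higher and 0.824% with a lower fold change in LIF/serum. At an unadjusted P below 0.05 there were 3 members, Ezh1, Eed and Mtf2, where 19.1% of all genes were, and DESeq2 called 1, Mtf2, where it called 8.42% of all genes.

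Among the PRC1 subunits, Cbx7, the CBX protein that predominates in ESCs, was lower in 2i/LIF. It lies on chromosome 15 (chr15:79915807-79971119). Cbx7 had normalized counts of 3756 and 1716 in 2i/LIF control cells and 6384 and 5497 in LIF/serum control cells. The media did not overlap, though the 2i/LIF libraries were far apart, and Cbx7 was 2.17-fold lower in 2i/LIF (log2 -1.12, SE 0.31, adjusted P = 0.0235). The estimate was -1.79 without 2i/LIF control replicate 1 and -0.71 without replicate 2, and the call was lost without LIF/serum control replicate 1 (adjusted P = 0.0967). In Dax1KO cells it had 4342 and 3868 in 2i/LIF and 7419 and 6404 in LIF/serum, a log2 fold change of -0.75 that did not pass the test (adjusted P = 0.105). It passed in DESeq2 (log2 -0.77, adjusted P = 0.0267), and in edgeR with a separate fit (adjusted P = 0.00713) and without 2i/LIF control replicate 1 or 2 (adjusted P = 0.00892 and 0.00828). After loss of Dax1 the log2 fold change of Cbx7 was 0.59 in 2i/LIF (95% interval -0.12 to 1.29) and 0.22 in LIF/serum (95% interval -0.48 to 0.92), and neither passed. With 1 library left out the first ranged from 0.14 to 1.26, the highest without 2i/LIF control replicate 1.

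Cbx2 and Cbx6, CBX proteins of the same complex position, varied less. Cbx2 (chr11:119022962-119031270) had between 1259 and 2071 normalized counts in all 8 libraries and passed no test, with log2 fold changes between 0.21 and 0.33 in the 4 comparisons of groups. Cbx6 (chr15:79823896-79834688) had 2861 and 2482 normalized counts in 2i/LIF control cells and 2105 and 1964 in LIF/serum control cells. It was 1.31-fold higher in 2i/LIF (log2 0.39, adjusted P = 0.0466). This call did not hold when any library was left out (adjusted P up to 0.219), with RLE factors, with a separate fit or with another filter. After loss of Dax1, Cbx6 had log2 fold changes of -0.09 and -0.04.

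Ring1, a catalytic subunit of PRC1, lies on chromosome 17 (chr17:34020792-34024680) and had the lowest counts of the 10, between 192 and 355 normalized counts. It had 347 and 355 in 2i/LIF control cells and 236 and 273 in LIF/serum control cells (log2 0.46, 95% interval -0.01 to 0.94, adjusted P = 0.116). In Dax1KO cells it had 325 and 340 in 2i/LIF and 267 and 192 in LIF/serum (log2 0.53, adjusted P = 0.0908). Ring1 was above LIF/serum in every 2i/LIF library but passed no test, and after loss of Dax1 its log2 fold changes were -0.08 and -0.15.

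The paralog Rnf2, which carries most of the PRC1 ligase activity in ESCs, was lower in Dax1KO cells in both media. Its normalized counts were 5955 and 4826 in 2i/LIF control cells and 2212 and 2165 in 2i/LIF Dax1KO cells. In LIF/serum they were 6604 and 4427 in control cells and 2396 and 2393 in Dax1KO cells. The Dax1KO libraries lay close together and well below all 4 control libraries. Rnf2 fell by 1.30 on the log2 scale in 2i/LIF (SE 0.19, adjusted P = 0.0172) and by 1.2 in LIF/serum (SE 0.19, adjusted P = 0.00814). The call in 2i/LIF was lost without 2i/LIF control replicate 1 or either 2i/LIF Dax1KO library (adjusted P up to 0.136), and that in LIF/serum without LIF/serum Dax1KO replicate 2 (adjusted P = 0.0591). Between media Rnf2 passed no test.

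The remaining subunit genes were taken from lists of 7 other PRC2 and 22 other PRC1 genes, all of which were tested. None of the 7 PRC2 genes was called by edgeR after loss of Dax1 in either medium, with 2 at an unadjusted P below 0.05 in each, where 17.9% of all genes were in 2i/LIF and 30.7% in LIF/serum. DESeq2 called none in 2i/LIF and 1 in LIF/serum, Rbbp4, where it called 7.94% and 19.7% of all genes. Of the 22 PRC1 genes, none rose and 2 fell in 2i/LIF, Rnf2 and Bcor, where 1.51% of all genes rose and 1.65% fell. In LIF/serum 4 rose and 3 fell, where 8.87% of all genes rose and 5.78% fell. At an unadjusted P below 0.05 in edgeR there were 8 in 2i/LIF and 9 in LIF/serum. DESeq2 called 3 in 2i/LIF, all lower, Rnf2, Bcor and Pcgf5, and in LIF/serum the same 7 as edgeR. In the interaction edgeR called none of them and DESeq2 called 2, Phc1 and Scml2, where it called 8.42% of all genes. The median log2 fold change of the 22 was -0.07 in 2i/LIF and 0.06 in LIF/serum.

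Bcor, a corepressor of a variant PRC1, had 3124 and 3733 normalized counts in 2i/LIF control cells and 1917 and 2289 in Dax1KO cells. In LIF/serum it had 1916 and 1681 against 1072 and 1025. It fell by 0.70 in 2i/LIF (adjusted P = 0.0463) and by 0.78 in LIF/serum (adjusted P = 0.0141) on the log2 scale. The first call was lost with every library left out and the second without LIF/serum control replicate 1 or either LIF/serum Dax1KO library, with adjusted P values up to 0.272 and 0.0934. L3mbtl2, a subunit of another variant PRC1, fell by 0.47 in LIF/serum (adjusted P = 0.0314), a call lost with 7 of the 8 libraries left out in turn.

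Scml2, a PRC1-associated protein, rose by a log2 of 1.12 in LIF/serum Dax1KO cells (SE 0.19, adjusted P = 0.00914), from 708 and 467 normalized counts to 1213 and 1350. The call was lost without LIF/serum Dax1KO replicate 2 (adjusted P = 0.0593). The other 3 that rose, Pcgf1 (log2 0.77), Rybp (log2 0.57) and Phc1 (log2 0.49), lie on chromosome 6, whose median was 0.52. Their calls were lost with 5 of the 8 libraries left out in turn for Pcgf1 and with 7 for Rybp and Phc1, LIF/serum Dax1KO replicate 2 among them. Without the 4 listed genes of chromosome 6, 1 rose and 3 fell of 25 other PRC2 and PRC1 genes in LIF/serum.

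**Figure D4:**
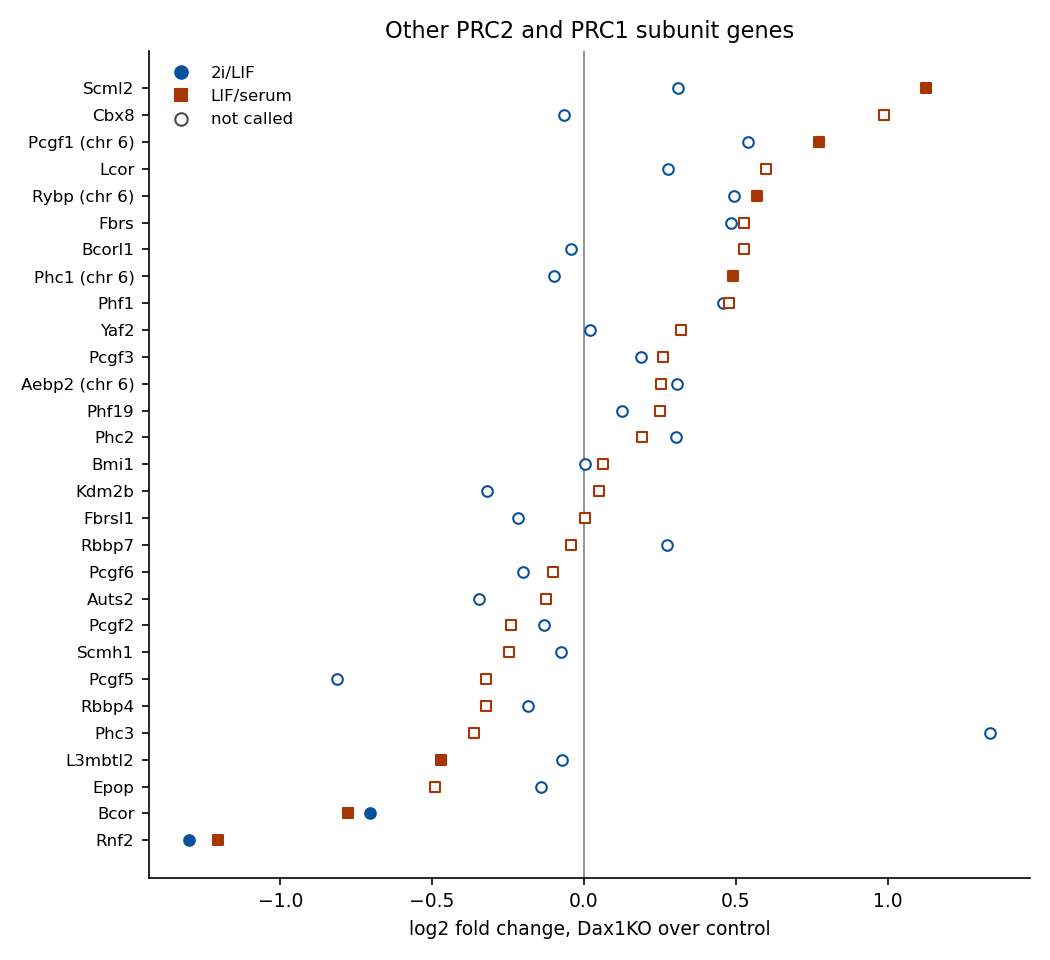
Log2 fold change between Dax1KO and control ESCs of the 29 other PRC2 and PRC1 genes, in 2i/LIF (circles) and LIF/serum (squares). Genes are ordered by their value in LIF/serum, filled marks passed the test in edgeR, and genes on chromosome 6 are named as such. Rnf2 and Bcor are filled in both media at the lower left, and Scml2 at 1.12 is highest in LIF/serum.

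Of the 22 other PRC1 genes, 9 were higher in 2i/LIF than in LIF/serum in control cells and 2 lower, where 20.3% of all genes were higher and 16.5% lower. In Dax1KO cells 7 were higher and 2 lower, where 15.2% and 13.7% of all genes were. The median log2 fold change of the list was 0.39 in control and 0.36 in Dax1KO cells, against 0.01 for all genes. Scml2 was 13.4-fold higher in 2i/LIF in control cells (log2 3.74, SE 0.20, adjusted P = 2.25e-05). Phc1, a Polyhomeotic subunit that multimerizes, was lower in 2i/LIF by a log2 of 1.56 (adjusted P = 8.2e-05), from 20717 and 17286 normalized counts in LIF/serum to 6248 and 6605.

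Of the 7 other PRC2 genes, 1 was higher and 2 lower in 2i/LIF in control cells, and 3 were higher and 2 lower in Dax1KO cells. All genes gave 20.3% higher and 16.5% lower in control cells and 15.2% and 13.7% in Dax1KO cells. A list of 6 genes that oppose Polycomb held, among others, the demethylases Kdm6a and Kdm6b and the deubiquitinase Bap1. None of the 6 was called by edgeR or DESeq2 after loss of Dax1. Of all genes, edgeR called 3.16% in 2i/LIF and 14.7% in LIF/serum, and DESeq2 7.94% and 19.7%. At an unadjusted P below 0.05 in edgeR there was 1 in 2i/LIF and 2 in LIF/serum, where 17.9% and 30.7% of all genes were. Between media 1 of the 6 was lower in 2i/LIF in control cells, where 16.5% of all genes were lower, and DESeq2 called 3 lower, Asxl1, Asxl2 and Kdm6a, where it called 18.1% of all genes lower. In Dax1KO cells 1 was higher and 2 lower, where 15.2% and 13.7% were.

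Hox genes are classical Polycomb targets in ESCs. Of 39 Hox genes, 32 passed the filter on low counts, which a gene can pass through its higher group alone. Their summed level was 4320 and 4087 normalized counts in 2i/LIF control cells and 3659 and 3738 in 2i/LIF Dax1KO cells. In LIF/serum it was 645 and 837 in control cells and 1951 and 2255 in Dax1KO cells, above both controls and below all 2i/LIF libraries. In control cells 23 were higher in 2i/LIF and none lower, where 20.3% of all genes were higher. In Dax1KO cells 12 were higher in 2i/LIF and 2 lower, where 15.2% and 13.7% of all genes were. In LIF/serum 10 rose after loss of Dax1 and none fell, where 8.87% of all genes rose. Of these, 4 were among the 10 tested Hox genes of chromosome 6, where 28.3% of all genes tested on that chromosome rose. The summed level of the primitive endoderm markers was higher in the same libraries. In 2i/LIF none was called after loss of Dax1 by edgeR or DESeq2, which called 3.16% and 7.94% of all genes. At an unadjusted P below 0.05 in edgeR there were 4, where 17.9% of all genes were.

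The genes whose pattern over the 8 libraries was nearest to that of a subunit were found by the root mean square difference of centred log2 CPM. Nearest to Suz12 were Rflna, Slc30a10 and Prrg1, at differences of 0.17, 0.19 and 0.20, against a spread of 0.91 for Suz12 itself. Nearest to Eed were Brix1, Gnl3 and Ddx52, at 0.07 to 0.08 against a spread of 0.48. Cand2, Nt5c3 and G6pc3 were nearest to Ezh2, and Tmem170, Vps26b and Atg4c to Ezh1. No other subunit was among the 3 nearest genes of any member. These values are descriptions over libraries that share their groups.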

How the data were processed

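Messenger RNA of 8 samples was sequenced on an Illumina instrument. The authors deposited raw counts per gene and library, whole numbers without normalization. The submitters' processing notes name HISAT2 2.0.4, DESeq2 and mm10, and the counting tool and annotation are not given in the sources used here. Whether the 2 libraries of a group came from separate cultures is not stated, so P values measure the spread between these libraries.

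All 8 libraries were grouped by their labels. Counts were filtered with filterByExpr, scaled by TMM and fitted with edgeR 4.0.16 in R 4.3.3 as 1 quasi-likelihood model with 4 group means. Contrasts compared genotypes within a medium, media within a genotype, and the 2 genotype effects with each other (the interaction, called by adjusted P alone). P values were adjusted by Benjamini-Hochberg over 20749 genes. The design of the test was written before the counts were read, but the members and lists were chosen with earlier results of these data known. Named genes were the 10 members, Nr0b1 and listed genes called after loss of Dax1 or in the interaction. Further genes were named after their values were seen: Rbbp4, Pcgf5, the genes of chromosome 6 and the antagonists. Normalized counts are counts over the TMM-scaled library size times its mean. Positions and exon lengths came from GENCODE M21, in which 52403 of the 52550 identifiers were found. Transcripts of members were aligned to all others with blastn 2.17.0 at 95% identity, and none matched another gene over more than 12.6% of its length.

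Same-numbered libraries correlated in their deviations by 0.08 for 2i/LIF and 0.108 for LIF/serum, 2 pairs a comparison, so numbers were not taken as pairs. The alternatives were DESeq2 1.42.0, RLE factors, TMM without chromosome 6, other filters, separate fits, a replicate block and each library left out. The fit was tested on simulated data with planted changes larger than those called for the members after loss of Dax1. The alternatives for listed genes and the chromosome 6 adjustments were added after the values were seen. One listed PRC1 gene, and the CBX shares that need it, are not reported here.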

Additional observations from a re-analysis of the deposited data

Results flagged for a closer look

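Mtf2 lay on opposite sides of the controls in the 2 media. Both Dax1KO libraries were above both control libraries in 2i/LIF, at a log2 fold change of 0.40, and below them in LIF/serum, at -0.45. The difference was tested as an interaction, with an adjusted P of 0.131 in edgeR and 0.023 in DESeq2. In 2i/LIF the 2 control libraries had 14752 and 9527 normalized counts, the widest gap of the 4 groups. With 1 library left out, the log2 fold change in 2i/LIF ranged from 0.13 to 0.75 and that in LIF/serum from -0.47 to -0.43.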

How the results depend on the processing

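With DESeq2, 1455 genes were called after loss of Dax1 in 2i/LIF in place of 656, and 1510 in place of 596 in the interaction, with 1 member and 2 other PRC1 or PRC2 genes there. With no filter on low counts, the calls were 121 genes, 0 members and 0 other subunit genes in 2i/LIF, 1842 genes and 4 other subunit genes in LIF/serum, 3 members between media in each genotype and 119 genes in the interaction. A separate fit gave 1743 genes and 3 other subunit genes in LIF/serum, RLE factors gave 1 other subunit gene in 2i/LIF, and 4 were left in LIF/serum without those of chromosome 6. With the chromosome 6 median subtracted, Ezh2 had a log2 fold change of -0.04 in LIF/serum. By the longest transcript, Ezh2 shares were 90.6%, 92.7%, 89.0% and 87.4% in 2i/LIF control, 2i/LIF Dax1KO, LIF/serum control and LIF/serum Dax1KO cells.

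With each library left out in turn, genes called after loss of Dax1 ranged from 38 to 673 in 2i/LIF and from 728 to 2496 in LIF/serum, members from 0 to 1 and from 0 to 3, and other subunit genes from 0 to 2 and from 0 to 5. Between media, genes ranged from 5057 to 7120 in control and from 2986 to 6286 in Dax1KO cells, and members from 3 to 4 and from 1 to 6, and other subunit genes from 9 to 16 in Dax1KO cells. In the interaction, genes ranged from 36 to 344, and members and other subunit genes from 0 to 1 each. The lowest counts of genes after loss of Dax1 came without 2i/LIF Dax1KO replicate 2 (38) and without LIF/serum Dax1KO replicate 2 (728).

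The library numbers were not shown to pair the samples. The replicate block gave 573, 3218, 7754, 6075 and 552 genes, and members called were 1, 3, 5, 5 and 0 as without it. Other causes of these changes were not tested, except that no filter tests more genes and a left-out library leaves fewer samples. Of the members' single values, 41 lost and 10 gained a call among those with a library left out and 349 stayed on their side of the threshold, called or not, against 10, 7 and 324 under the other alternatives, with 1 change of sign, that of Ezh2 above. The 95% intervals of Cbx2, Cbx6 and Ring1 bound what could be seen at 2 libraries a group.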
